A study of Mus musculus with 4 samples.

Results

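Complement genes were followed in single-nucleus RNA sequencing of mouse brain after stroke. The 10 genes were picked by symbol out of the 46983 rows of the deposited gene tables, and each symbol matched 1 row. They are C1qa, C1qb and C1qc, which encode the chains of the recognition molecule C1q, C4b and C3, the proteins cleaved after C1q has bound, C3ar1 and C5ar1, the receptors of the peptides C3a and C5a, Serping1, the inhibitor of the C1 proteases, and Csmd1 and Csmd3, large membrane proteins with complement control domains.

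The mice were C57Black/6 males of 3 months. One group was the sham control, and the others were collected 1 day, 3 days and 7 days after permanent middle cerebral artery occlusion (MCAO), in which the artery was coagulated and transected. Each group was 1 library made from 3 forebrain hemispheres pooled during the isolation of nuclei, so there were no replicates, no p-value is given, animals cannot be told apart, and all intervals cover counting error only. The labels name no transgene, drug or genotype. The labels are at odds over the control tissue, which the surgical protocol calls intact cortex, whereas the sham control library held 353 striatal projection neuron-like nuclei. The number of nuclei that the study assigns to each time point fits the deposited libraries only when day 3 and day 7 change places, so "day 3" and "day 7" below mean the libraries labelled so. Exchanging the labels gives each value of day 3 to day 7 and the reverse.

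Complement is a chain of blood and tissue proteins that tags cells, debris and synapses for removal. In the classical pathway C1q binds a target, its attached proteases cleave C4 and C2, and C3 is then cleaved into C3b, which marks the surface, and C3a, a peptide that attracts and activates myeloid cells. In brain, C1q is made mainly by microglia, C4b is known as a gene that reactive astrocytes and some oligodendrocytes express, and CSMD proteins are membrane regulators studied mostly in neurons.

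The C1q genes lay side by side on the minus strand of chromosome 4 (GRCm38, GENCODE vM21), with C1qb at 136880129 to 136886187, C1qc at 136889804 to 136893065 and C1qa at 136895917 to 136898803. RefSeq promoter windows were found for 5 of the 10 genes, namely C1qb, C1qc, C3, C3ar1 and C5ar1. The sequences just upstream of C1qb and C1qc are shown because these neighbours were measured together in the same nuclei below. They are given 5′ to 3′ on the gene's strand in build GRCm38.p6, without any base inside the annotated gene, from chr4:136886201-136886450 for C1qb and chr4:136893066-136893164 for C1qc. Capitals mark GAGGAA, a core that ETS factors of the PU.1 type bind in myeloid cells, or its reverse complement TTCCTC.
C1qb: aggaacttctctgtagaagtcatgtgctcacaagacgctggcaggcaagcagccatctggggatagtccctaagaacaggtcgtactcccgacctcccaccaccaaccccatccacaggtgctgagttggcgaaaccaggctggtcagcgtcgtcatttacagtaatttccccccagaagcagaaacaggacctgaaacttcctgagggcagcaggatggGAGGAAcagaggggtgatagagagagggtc
C1qc: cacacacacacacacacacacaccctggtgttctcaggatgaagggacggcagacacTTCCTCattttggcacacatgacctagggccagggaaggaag
The C1qb stretch held the motif 1 time in the forward direction and the C1qc stretch 1 time in the reverse direction. None was found in the 250 bases before the RefSeq start of C3, C3ar1 or C5ar1, of which 250, 246 and 48 bases lie outside the annotated gene. Of all 32851 promoter windows of 250 bases, 23.3% held the motif on either strand, so a match is a description and not a binding site.

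The 4 libraries held between 23285489 and 42963698 unique molecular identifiers (UMIs, each counted as 1 captured RNA molecule), and 52.2% to 60.5% of them fell in called nuclei. After removal of 146 predicted doublets, 7800 nuclei remained (2118, 1018, 3092 and 1572 in the order sham control, day 1, day 3 and day 7, which every row of 4 values below follows, as rows of 3 ratios follow day 1, day 3 and day 7), with median depths of 6353.5, 10933, 5413 and 6982.5 UMIs. Only 9 barcodes occurred in more than 1 library. Nuclei fell into 31 clusters that were named from marker genes, and each name ends in "-like" for that reason. All 16 microglia markers were detected in microglia-like nuclei of every library, as were all 14 astrocyte and all 13 oligodendrocyte markers in their own classes. Of the border macrophage markers 4 to 7 of 8 were detected in the microglia-like sums, at 365, 436, 783 and 622 CPM, against 8340 to 13028 CPM for the microglia markers, and Lyve1 was at 0 in each. CPM, the unit of level used throughout, scales the UMIs of a gene to all UMIs of its class in 1 library. A gene was counted as higher or lower at 2-fold or more if both sums together held at least 10 UMIs.

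C1qa, C1qb and C1qc were microglial in all 4 libraries, and their level in these nuclei stayed within 2-fold of sham control on every day. Sham control gave 481 CPM of C1qa (95% interval 383 to 596, 79 nuclei), day 1 gave 426 CPM (341 to 527, 37 nuclei), day 3 gave 642 CPM (566 to 725, 180 nuclei) and day 7 gave 506 CPM (419 to 607, 88 nuclei). The C1qa ratio to sham control was 0.887 for day 1 (0.649 to 1.21), 1.34 for day 3 (1.04 to 1.73) and 1.05 for day 7 (0.789 to 1.41). The interval at day 3 lay above 1 and the others spanned it. The next class in C1qa, among those of at least 20 nuclei, reached 29.7 to 40.6 CPM, and its interval overlapped that of microglia-like nuclei in no library.

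C1qb stood at 510, 417, 590 and 489 CPM in the same order of libraries, and all 3 ratios, 0.817, 1.16 and 0.960, had intervals that included 1. C1qc stood at 486, 283, 477 and 386 CPM. The day 1 value of C1qc was the low one, at 0.581 of sham control (0.408 to 0.823), whereas its ratios of 0.980 and 0.794 at day 3 and day 7 were not separable from 1. The microglia-like class made up 3.73%, 3.63%, 5.82% and 5.60% of all kept nuclei.

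The day 1 class was unlike the others in depth. Of its 37 nuclei, 5 had more than 10000 UMIs and carried 46.9% of the class's UMIs, and in these the summed neuron markers stood at 10692 CPM against 2035 CPM in the other 32. Sham control had 1 such nucleus (6.80% of UMIs), day 3 had 3 (10.9%) and day 7 had 3 (16.995%). Among nuclei of at most 10000 UMIs, an alternative added after the data were seen, C1qa stood at 503, 663, 688 and 610 CPM, C1qb at 541, 569, 643 and 558 CPM, and C1qc at 503, 467, 524 and 455 CPM. The low day 1 value of C1qc was thus not present without the deep nuclei.

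Within single nuclei the C1q genes were often seen together. At least 1 UMI of C1qa was found in 59.5%, 81.1%, 63.9% and 64.8% of microglia-like nuclei, from sham control to day 7, with median depths of 1651, 3400, 1693.5 and 1913.5 UMIs. In glutamatergic neuron-like nuclei, which should lack the gene, the share was 3.02%, 7.67%, 6.80% and 6.31% at median depths of 10322, 16620, 9026 and 11169.5 UMIs. All 3 C1q genes were detected in 25 of 79, 21 of 37, 66 of 180 and 23 of 88 microglia-like nuclei. When every nucleus was thinned to 1000 UMIs, the shares with all 3 were 10.1%, 16.2%, 11.7% and 10.2%, a narrower range than the 26.1% to 56.8% at full depth.

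Microglia-like nuclei were also divided by reactive genes. At least 2 UMIs of Spp1, Gpnmb, Lgals3, Igf1 or Lpl, genes that microglia express in injured and ageing tissue, were found in 1 of 79, 7 of 37, 46 of 180 and 21 of 88 microglia-like nuclei. At day 3, C1qc stood at 301 CPM in those 46 nuclei (220 to 403) and 579 CPM in the other 134 (489 to 680), while C3ar1 stood at 167 CPM (108 to 247) against 62.6 CPM (35.8 to 102) and C5ar1 at 147 CPM (92.4 to 223) against 66.5 CPM (38.7 to 106). The median depths were 2356.5 and 1571.5 UMIs, and the direction of C1qc and C5ar1 was held after thinning to 1000 UMIs, at 370 against 679 CPM and 196 against 59.7 CPM. The thinned intervals overlapped, at 215 to 592 against 547 to 834 CPM for C1qc and 89.5 to 371 against 25.8 to 118 CPM for C5ar1. The nuclei were still divided by their reactive UMIs before thinning. C3ar1 then stood at 87.0 against 67.2 CPM. At full depth C1qa stood at 536 against 704 CPM and C1qb at 469 (366 to 593) against 661 CPM (565 to 769), and after thinning at 652 against 664 CPM and 717 against 664 CPM. At day 7 the same split gave 375 and 391 CPM for C1qc, 105 and 48.1 CPM for C5ar1, and 60.0 (16.3 to 153) and 84.2 CPM (46.0 to 141) for C3ar1. The day 3 difference in C1qc was not seen at day 7, and C3ar1 there ran the other way. At day 1, with 7 nuclei against 30, C1qc stood at 227 and 294 CPM, C3ar1 at 227 and 54.1 CPM and C5ar1 at 369 and 144 CPM. Csmd3 was lower in the nuclei with reactive genes on each day after MCAO. It stood at 426 against 1833 CPM, 911 (764 to 1078) against 2453 CPM (2265 to 2653) and 1244 against 2430 CPM. After thinning these values were 1000 against 2100, 500 against 2604 and 1333 against 2343 CPM. Nuclei of 1 library are not replicates, and no test was made of these differences.

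C1q RNA outside nuclei was another matter. Droplets of 1 to 100 UMIs are taken to hold no nucleus and show the RNA that floats free in the suspension, from cytoplasm as well as from broken nuclei. Their C1qa level was 74.7 CPM in the sham control suspension and 157, 209 and 220 CPM after MCAO, a ratio of 2.10 (1.71 to 2.61), 2.79 (2.27 to 3.45) and 2.94 (2.39 to 3.64). C1qb went from 85.1 to 181, 243 and 239 CPM, and C1qc from 39.2 to 68.8, 128 and 140 CPM.

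All 3 C1q genes were therefore more than 2-fold higher in free RNA at day 3 and day 7, where their levels in microglia-like nuclei were not. More microglia or more C1q RNA per cell cannot be told apart in free RNA. Of the complement genes tested, 3 of 9 were higher at day 1, 7 of 10 at day 3 and 5 of 8 at day 7, and 0 were lower, against 4.69%, 3.4% and 4.54% of all genes higher and 3.48%, 3.85% and 2.96% lower. The median log2 ratio of the tested members was 0.79, 1.18 and 1.21, and that of all genes lay between -0.05 and 0.00. In the larger droplets, above 100 and up to 500 UMIs, the counts were 2, 7 and 5 of 10 higher and 0 lower, against 4.03%, 4.12% and 4.64% of all genes higher and 2.85%, 2.62% and 2.77% lower.

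**Figure D1:**
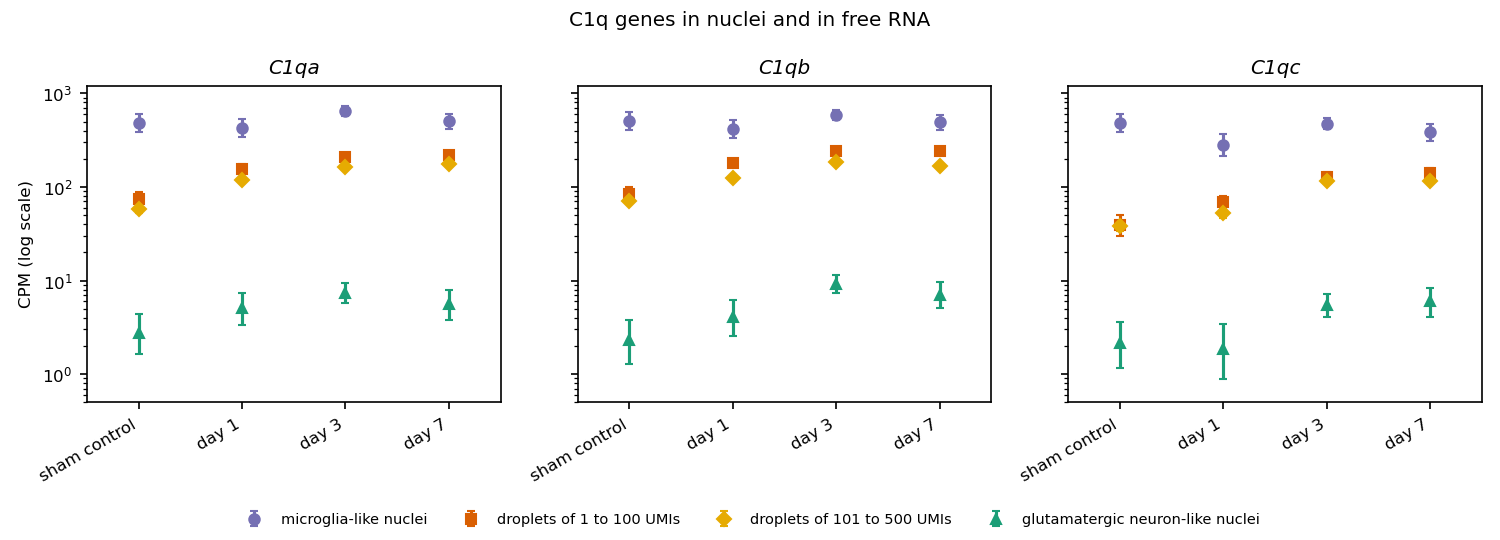
Level of C1qa, C1qb and C1qc (CPM, log axis) in microglia-like nuclei (circles), glutamatergic neuron-like nuclei (triangles) and in droplets of 1 to 100 UMIs (squares) and above 100 up to 500 UMIs (diamonds), by library, with exact 95% Poisson intervals. The circles stay within 2-fold of sham control while both kinds of droplets climb, C1qa in the smallest droplets from 74.7 CPM to 220 CPM.

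Free RNA enters every droplet, and the C1q UMIs of other classes have to be read against it. Oligodendrocyte-like nuclei held 5, 14, 39 and 23 UMIs of C1qa, or 6.26, 25.5, 39.4 and 32.3 CPM, with ratios of 4.08 (1.39 to 14.5), 6.30 (2.48 to 20.5) and 5.17 (1.92 to 17.4). Per nucleus these were 0.0155, 0.0881, 0.0907 and 0.0902 UMIs, beside 0.0320, 0.0941, 0.0758 and 0.0724 UMIs in a glutamatergic neuron-like nucleus and 0.0176, 0.0466, 0.0586 and 0.0560 UMIs in one of the larger droplets. An astrocyte-like nucleus held 0.0567, 0.0909, 0.0963 and 0.183 UMIs of C1qa. From day 1 to day 7 the oligodendrocyte-like amount was thus close to that of a glutamatergic neuron-like nucleus, and in sham control it was below it. A microglia-like nucleus held 1.05, 2.32, 1.44 and 1.34 UMIs.

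In neurons the C1q values are given as ratios for C1qa, C1qb and C1qc in turn. Glutamatergic neuron-like nuclei held C1qb at 2.29, 4.10, 9.28 and 7.08 CPM, and the ratios were 1.83, 1.79 and 0.870 at day 1, 2.66 (1.57 to 4.76), 4.04 (2.32 to 7.54) and 2.57 (1.40 to 5.03) at day 3 and 2.04, 3.09 and 2.80 at day 7. In the striatal class they were 2.97, 4.90 and 1.90 after 1 day, 3.66, 3.81 and 4.31 after 3 days and 1.58, 1.34 and 1.67 after 7 days. In GABAergic interneuron-like nuclei, on 2 to 4 UMIs in sham control, the day 7 ratios were 4.72 (1.27 to 26.1), 2.07 (0.525 to 9.62) and 8.26 (1.90 to 74.9). The neurons of no named class gave 1.27, 1.73 and 1.28 at day 7, and C1qa there was 0.435 of sham control at day 1 (0.124 to 1.26). The ratios thus lay above 2 in some neuron classes and below it in others on the same day. In astrocyte-like nuclei C1qc had 3, 7, 28 and 12 UMIs, or 4.97, 19.4, 35.2 and 27.0 CPM, and C1qb was 3.03-fold higher at day 3 (1.37 to 7.61), against 1.72 (0.737 to 4.47) among nuclei of at most 10000 UMIs. The C1q genes differed in how their values held once free RNA was subtracted. With an equal amount of free RNA subtracted per nucleus, C1qa in oligodendrocyte-like nuclei was past 2-fold on no day, whereas with free RNA subtracted in proportion to UMIs it was past 2-fold on all 3 days. In the equal subtraction its sham control sum was set to a floor of 3 UMIs. In oligodendrocyte-like nuclei the day 3 value of C1qc was past 2-fold in all 13 alternative settings, with log2 ratios from 1.40 to 2.62, and its day 7 value was not after either subtraction. C1qb there was past 2-fold at day 3 after neither subtraction. After the equal one, C1qa at day 1, C1qb at day 3 and C1qc at day 7 had both sums at or under the floor of 3 UMIs. Those ratios were set by the class totals and cannot show that a difference was lost. In astrocyte-like nuclei the ratio of C1qc stayed past 2-fold after both subtractions on every day, though the subtracted day 1 sums fell under the minimum of 10 UMIs. It was not past 2-fold at day 3 when nuclei were thinned to 1000 UMIs (log2 ratio 0.96) nor at day 7 among nuclei of at most 10000 UMIs (0.96). Per nucleus, astrocyte-like nuclei held 0.0213, 0.127, 0.128 and 0.169 UMIs of C1qc, beside 0.0249, 0.0348, 0.0569 and 0.0771 in glutamatergic neuron-like nuclei.

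**Figure D2:**
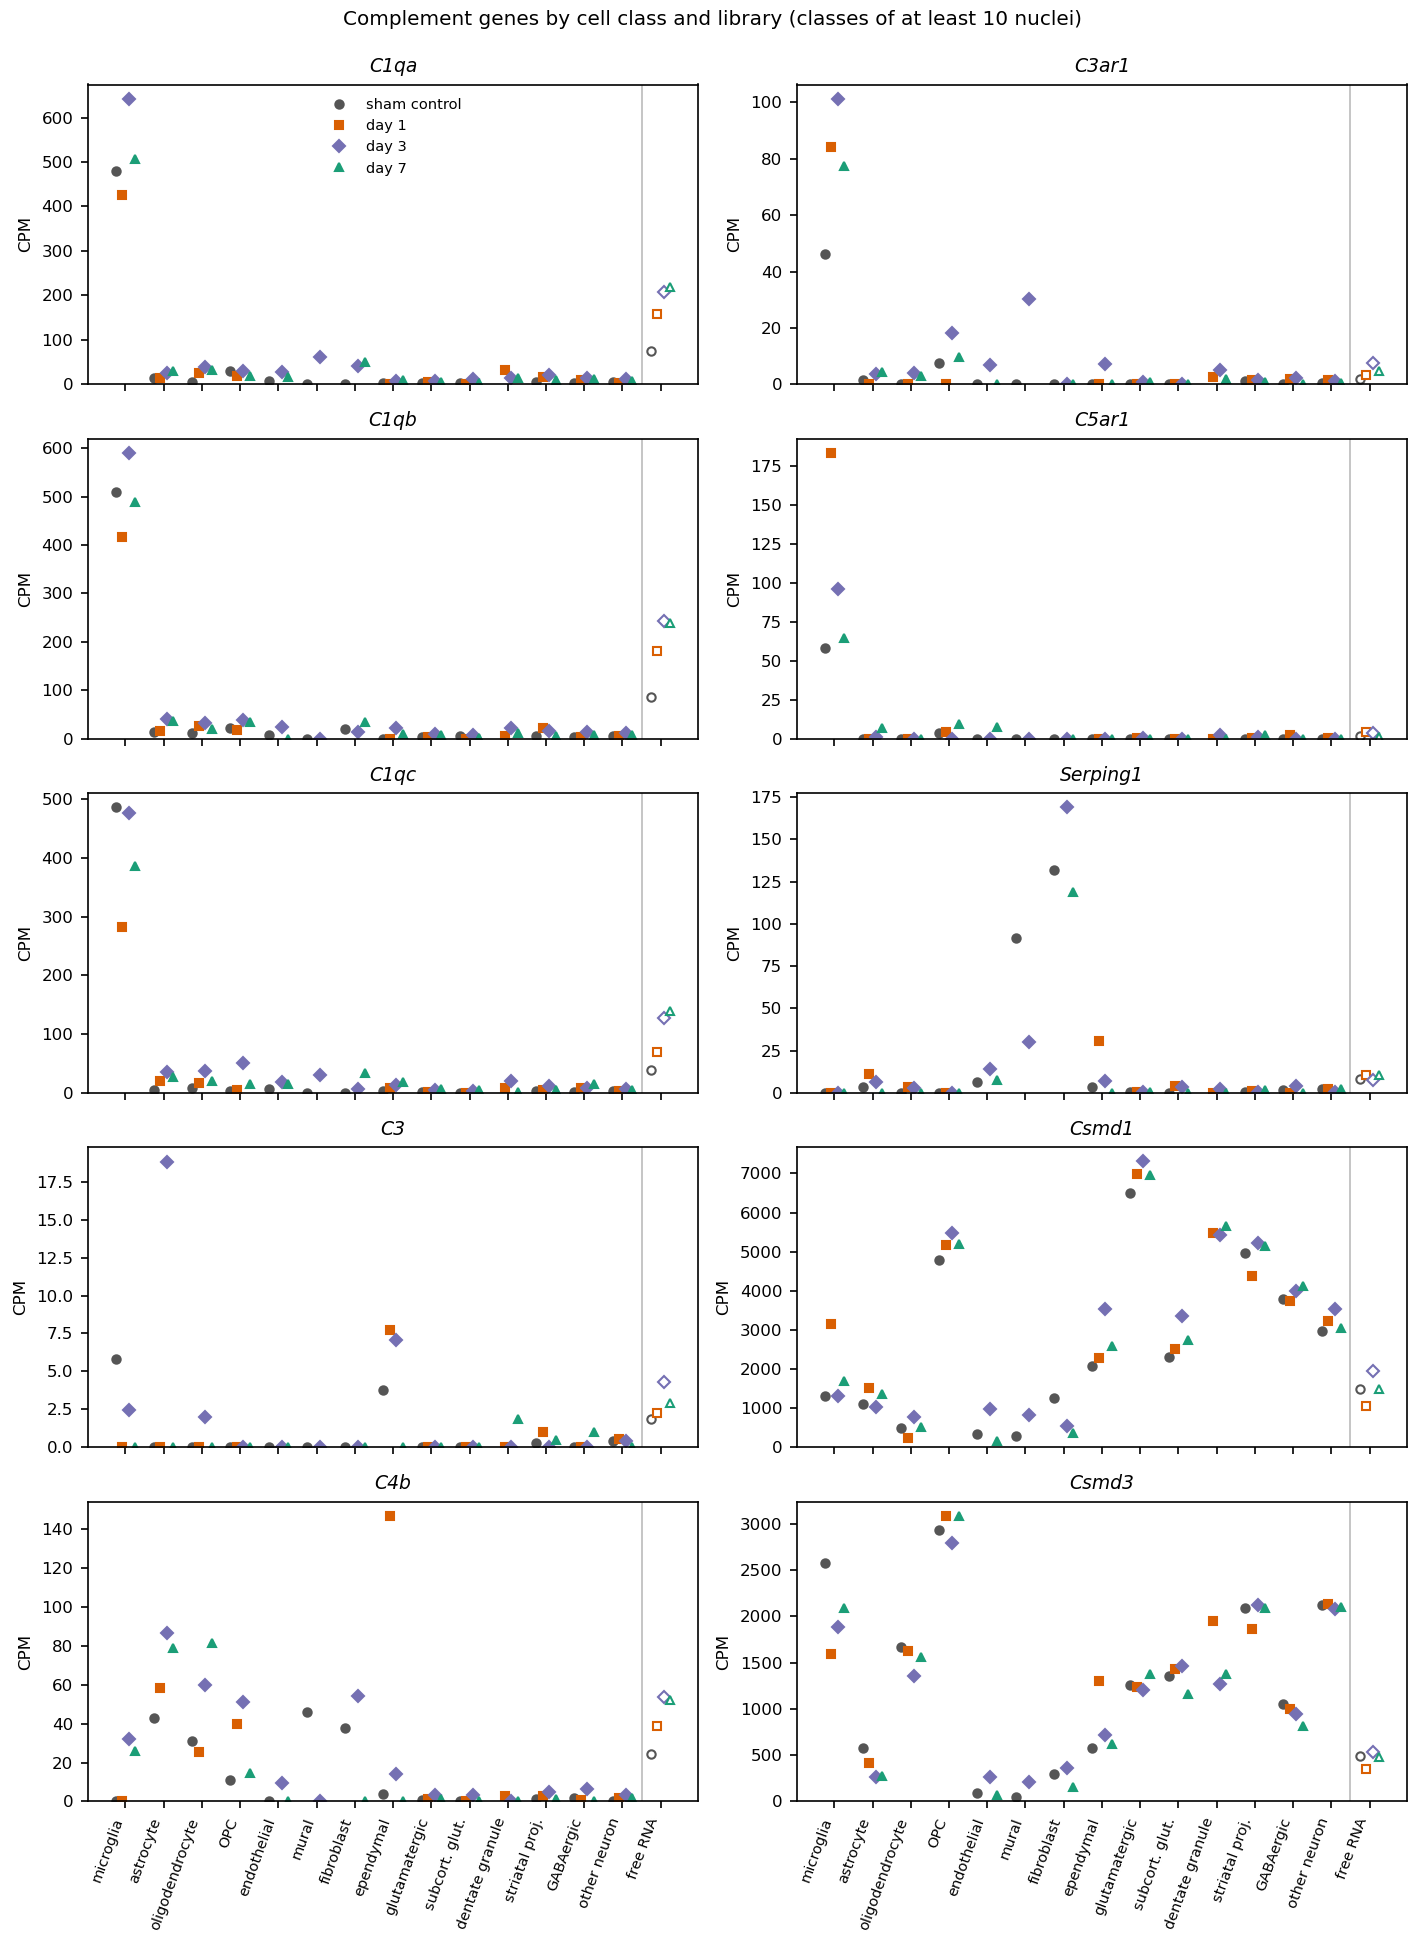
Level of each complement gene (CPM, linear axis from 0, a separate scale per panel) by cell class and library, for classes of at least 10 nuclei, with free RNA (open symbols, droplets of 1 to 100 UMIs) at the right. C1q and both receptors stand out in microglia, Serping1 in fibroblasts, Csmd1 in glutamatergic neurons and Csmd3 in oligodendrocyte precursors (OPC), and 17 of the 19 UMIs behind the C4b point of day 1 ependymal nuclei, at 147 CPM, came from 1 nucleus.

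C4b, the mouse C4 gene at chromosome 17, 34728380 to 34743882, was the glial member, with its main levels in astrocyte- and oligodendrocyte-like nuclei. It has a near copy, C4a, and reads shared by both are uncertain. The C4b level of oligodendrocyte-like nuclei was 31.3 CPM without occlusion (25 UMIs, 20.2 to 46.2), then 25.5 CPM (14 UMIs) after 1 day, 59.6 CPM (59 UMIs) after 3 days and 81.6 CPM (58 UMIs, 61.9 to 105) after 7 days. It was 2.61-fold higher at day 7 (1.605 to 4.35), 1.90 times sham control at day 3 (1.17 to 3.17) and 0.816 times at day 1 (0.392 to 1.63). The day 7 value was past 2-fold in all 13 alternative settings tried, with log2 ratios from 1.21 to 1.55.

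C4b in oligodendrocyte-like nuclei stood above the free-RNA amount. At day 7 it was found in 12.5% of them, at a median depth of 2389 UMIs, and in 1.64% of glutamatergic neuron-like nuclei, at a median depth of 11169.5 UMIs, where the level was 1.45 CPM. At these low levels C4b was also past 2-fold in neurons. Glutamatergic neuron-like nuclei held 4, 8, 29 and 8 UMIs, with ratios of 2.44 (0.653 to 11.1), 5.11 (1.80 to 20.0) and 2.37 (0.636 to 10.8). The day 3 library also had higher C4b in the striatal class (17 UMIs against 5, ratio 3.47, 1.23 to 12.04), in GABAergic interneuron-like nuclei (8 against 2, ratio 3.68, 0.733 to 35.5) and in the neurons of no named class (9 against 1, ratio 8.36, 1.16 to 366). With sham control set to a floor of 3 UMIs the last 2 of these ratios were 2.45 and 2.79. By cluster, C4b at day 7 was 135 CPM in an oligodendrocyte cluster of 51 nuclei (86.8 to 201), 78.9 CPM in the largest one of 186 nuclei (54.6 to 110) and 0 UMIs in 18 nuclei of the smallest. In free RNA C4b stood at 24.5, 38.9, 53.5 and 51.9 CPM, and its ratios were 1.59, 2.19 and 2.12.

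Astrocyte-like nuclei held C4b at 43.1 CPM (26 UMIs, 28.1 to 63.1), 58.3 CPM (21 UMIs), 86.6 CPM (69 UMIs) and 78.6 CPM (35 UMIs). The 3 ratios were 1.35 (0.724 to 2.50), 2.01 (1.26 to 3.29) and 1.82 (1.07 to 3.16). The intervals of astrocyte- and oligodendrocyte-like nuclei overlapped in every library, so their order is not set. The day 3 value in astrocytes sat on the 2-fold line and was past it in 7 of 13 alternative settings. In oligodendrocyte precursor-like nuclei C4b had 3, 9, 17 and 3 UMIs, with ratios of 3.58 (0.894 to 20.6), 4.59 (1.33 to 24.4) and 1.30 (0.174 to 9.73). Microglia-like nuclei had 0, 0, 13 and 6 UMIs of C4b. With sham control set to a floor of 3 UMIs the day 3 ratio was 1.85, under the 2-fold line, and the lower limit of its interval was 1.30.

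Oligodendrocyte-like nuclei with C4b were set beside those without it for Serpina3n, a protease inhibitor gene of reactive glia, and Il33, an alarmin gene of mature oligodendrocytes. At day 7, Serpina3n was found in 7 of 32 nuclei with C4b (21.9%, 9.28% to 40.0%, Clopper-Pearson) and 3 of 223 without it (1.35%, 0.278% to 3.88%). In sham control it was found in 0 of 23 and 1 of 299, at day 1 in 2 of 9 and 5 of 150, and at day 3 in 3 of 44 and 11 of 386. Nuclei with C4b were deeper, 2982 against 2294 UMIs at the median of day 7, and after thinning to 1000 UMIs only 1 of 16 and 0 of 239 held Serpina3n, too few to compare. Il33 was found in 47.8%, 66.7%, 54.5% and 62.5% of nuclei with C4b and in 42.5%, 48.0%, 30.6% and 45.7% of those without. After thinning, the shares at day 3 were 52.0% (13 of 25, 31.3% to 72.2%) and 20.5% (83 of 405, 16.7% to 24.8%), and at day 7 43.8% (7 of 16) and 28.9% (69 of 239). The thinned order was the reverse in sham control, at 18.2% (2 of 11) and 30.9%, and at day 1, at 20.0% (1 of 5) and 26.6%, and the intervals overlapped on each day but day 3.

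**Figure D3:**
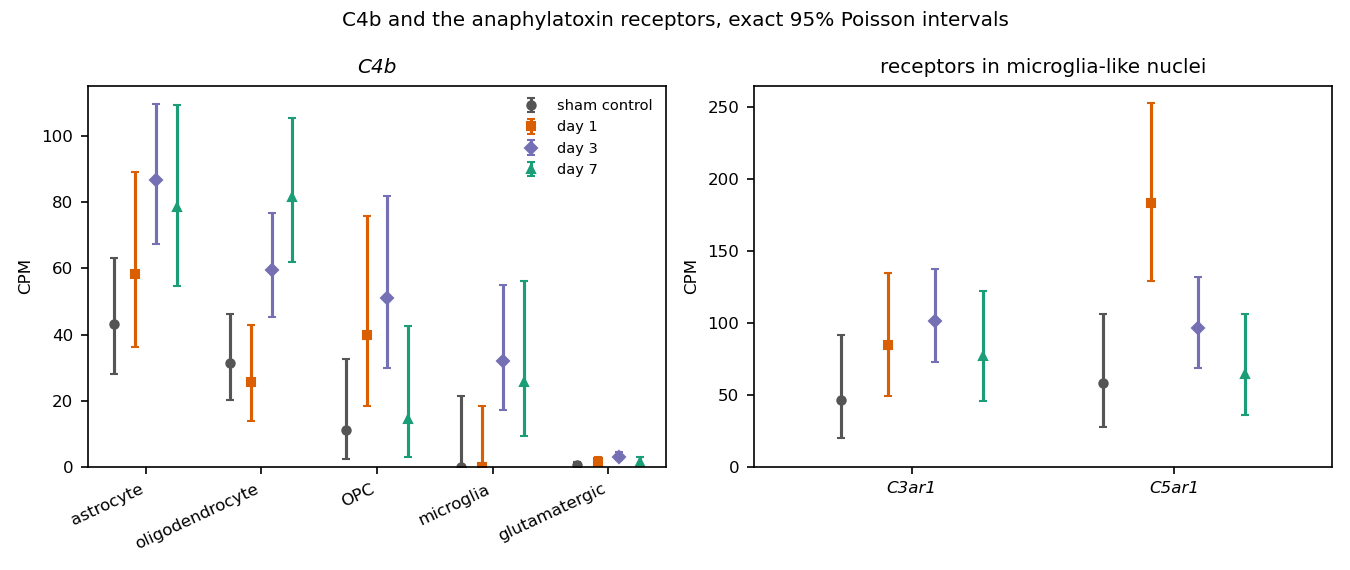
Left, C4b (CPM) in 5 cell classes by library, and right, C3ar1 and C5ar1 (CPM) in microglia-like nuclei, with exact 95% Poisson intervals. C4b reaches 81.6 CPM in oligodendrocytes at day 7 and 86.6 CPM in astrocytes at day 3 while glutamatergic neurons stay at or under 3.13 CPM, and C5ar1 peaks at 183 CPM at day 1.

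C3, at chromosome 17, 57203970 to 57228136, the point where all complement pathways meet, was nearly absent from nuclei, with 32 UMIs in all 7800. Astrocyte-like nuclei of day 3 held 15 of them, in 3 nuclei of 218, and 1 nucleus alone held 13. The other astrocyte-like sums were 0. With sham control set to a floor of 3 UMIs the day 3 ratio was 3.79, a call that 1 nucleus decided. Without it 2 UMIs remained. In the larger droplets, where more RNA was read, C3 stood at 1.64, 2.68, 5.50 and 4.45 CPM (15, 14, 83 and 39 UMIs), with ratios of 1.64 (0.734 to 3.65), 3.37 (1.93 to 6.28) and 2.72 (1.47 to 5.31). The C3 difference in free RNA at day 3 and day 7 was therefore not matched by any class sum that rested on more than a few nuclei.

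C5ar1 and C3ar1, the receptors by which myeloid cells sense C5a and C3a, were highest in microglia-like nuclei, and C5ar1 had its top value at day 1. In each library the next class for either receptor was at or below 18.1 CPM, in oligodendrocyte precursor- or dentate granule neuron-like nuclei, and its interval overlapped that of microglia-like nuclei for C3ar1 in sham control alone (0.900 to 26.8 against 20.0 to 91.3 CPM). C5ar1 lies on chromosome 7 from 16246743 to 16259540. Its level was 57.9 CPM in sham control (10 UMIs, 27.8 to 106), 183 CPM on day 1 (37 UMIs, 129 to 253), 96.3 CPM on day 3 (39 UMIs, 68.5 to 132) and 64.4 CPM on day 7 (15 UMIs, 36.0 to 106). It was 3.17-fold higher at day 1 (1.54 to 7.14), while the later ratios of 1.66 (0.816 to 3.74) and 1.11 (0.467 to 2.77) had intervals that included 1. The day 1 call was past 2-fold in 13 of 14 alternative settings and missed it narrowly, at a log2 ratio of 1.00, in nuclei of more than 2000 UMIs. Among nuclei of at most 10000 UMIs C5ar1 was at 299 CPM on day 1 and 55.9 CPM in sham control, a ratio of 5.34 (2.49 to 12.7).

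A C5ar1 UMI was found in 22 of 37 microglia-like nuclei at day 1 (59.5%), against 10.1%, 16.1% and 13.6% in the sham control, day 3 and day 7 libraries, and thinning to 1000 UMIs left shares of 27.0%, 3.797%, 7.78% and 6.82%, day 1 first. In the larger droplets the gene had 12, 29, 50 and 16 UMIs, with ratios of 4.25 (2.10 to 9.14), 2.53 (1.33 to 5.23) and 1.39 (0.619 to 3.23). In droplets of 1 to 100 UMIs the day 1 ratio was 2.22 (0.554 to 12.7), on 3 and 9 UMIs. C5ar1 was thus high at day 1 both in microglia-like nuclei and in the larger droplets, where day 3 was also past 2-fold. The neutrophil markers S100a8, Retnlg and Ly6g were at 0 in the day 1 microglia-like sum. The other 3 of 6, S100a9, Csf3r and Mmp9, were detected, and the list stood at 268 CPM, against 533 CPM in sham control. No marker list for monocytes was used.

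C3ar1 lies on chromosome 6 from 122847138 to 122856161, and its level was 46.3 CPM (8 UMIs, 20.0 to 91.3), 84.3 CPM (17 UMIs), 101.3 CPM (41 UMIs, 72.7 to 137) and 77.3 CPM (18 UMIs). It was 2.19-fold higher at day 3 (1.01 to 5.40), and 1.82 times (0.744 to 4.87) and 1.67 times (0.690 to 4.43) sham control at day 1 and day 7. The intervals of day 3 and the other days overlapped widely, and the day 3 call was lost when nuclei were thinned to 1000 UMIs (log2 ratio 0.93). Among nuclei of at most 10000 UMIs C3ar1 stood at 43.5, 112, 88.7 and 93.1 CPM, with ratios of 2.58 (0.935 to 7.72), 2.04 (0.884 to 5.48) and 2.14 (0.853 to 6.06), so the day with the top value moved to day 1 and all 3 days passed 2-fold, with intervals that included 1. In total, 2 of the 7 complement genes tested in microglia-like nuclei were higher at day 1 (C5ar1 and Csmd1), 1 of 8 at day 3 (C3ar1) and 0 of 7 at day 7, and 0 were lower, against 11.6%, 6.57% and 8.84% of all genes higher and 10.7%, 6.5% and 8.89% lower. The median log2 ratio of the members was -0.17, 0.32 and 0.08 beside 0.02, 0.03 and 0.02 for all genes.

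**Figure D4:**
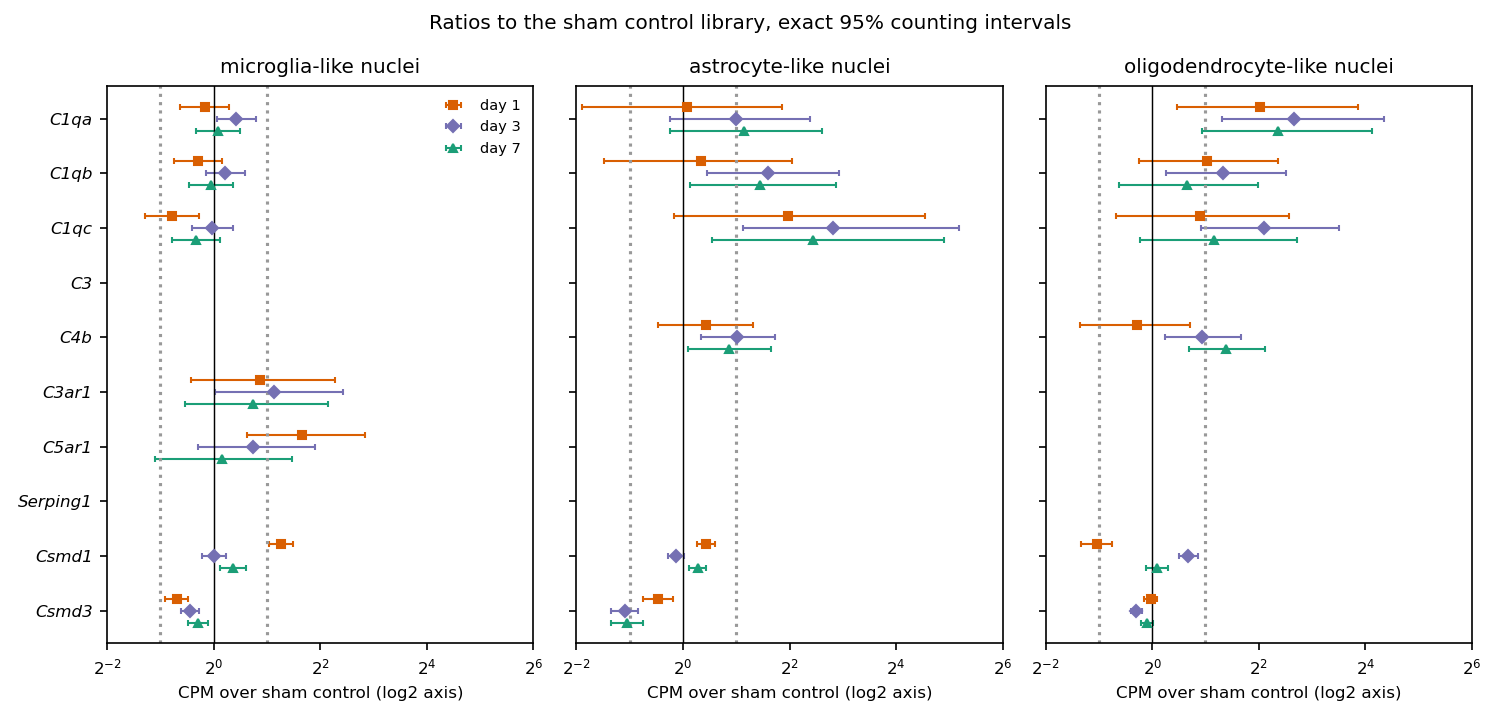
Ratio of each complement gene to sham control (log2 axis) at day 1, day 3 and day 7 in 3 glial classes, with exact 95% counting intervals and dotted lines at 2-fold. Genes under 10 UMIs, or with a sum of 0, have no point. C5ar1 in microglia at day 1 (3.17) and C4b in oligodendrocytes at day 7 (2.61) lie right of the 2-fold line.

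Serping1, on chromosome 2 from 84765387 to 84775444, was a gene of fibroblast-like nuclei, at 132 CPM (7 UMIs in 14 nuclei), 65.3 CPM (2 UMIs in 3 nuclei), 169 CPM (25 UMIs in 30 nuclei, 109 to 250) and 119 CPM (7 UMIs in 16 nuclei). Microglia-like nuclei held 0 UMIs in every library, and astrocyte-like nuclei held 2, 4, 5 and 0. The fibroblast class had fewer than 20 nuclei in 3 libraries and was not compared. In droplets of 1 to 100 UMIs Serping1 stood at 7.96, 10.4, 7.57 and 10.4 CPM, with no ratio past 2-fold. In the larger droplets it was at 6.00, 6.33, 9.95 and 12.1 CPM, higher at day 7 (2.02, 1.44 to 2.84).

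Csmd1, a gene of 1643050 bp at chromosome 8, 15892537 to 17535586, was high in glutamatergic neuron-like nuclei, at 6501 CPM (6440 to 6563), 6985 CPM, 7310 CPM and 6955 CPM. This class was the top one in all 4 libraries, and its interval overlapped that of the next class in none. The ratios to sham control were 1.07, 1.12 and 1.07, small differences with narrow intervals. Oligodendrocyte precursor-like nuclei held 4778 to 5482 CPM, while mature oligodendrocyte-like nuclei held 235 to 773 CPM. The gene overlaps 7 other genes in the annotation of these positions, whereas the study's methods name another GENCODE release for the counts. Whether counting used strand is not given in the sources used here.

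Csmd3, a gene of 1211427 bp at chromosome 15, 47580637 to 48792063, had another order. Oligodendrocyte precursor-like nuclei were the top class in all 4 libraries, at 2931, 3085, 2786 and 3083 CPM, and in sham control their interval overlapped that of microglia-like nuclei at 2571 CPM. Mature oligodendrocytes kept Csmd3, at 1355 to 1663 CPM. Astrocyte-like nuclei were low, at 573, 416.5, 269 and 278 CPM. Across the 31 clusters Csmd1 ranged from 264 to 8204 CPM and Csmd3 from 141 to 3148 CPM. The 8 glutamatergic clusters held Csmd1 at 4801 to 8204 CPM and Csmd3 at 986 to 1719 CPM, and both striatal projection neuron clusters held Csmd3 at 2007 and 3148 CPM.

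**Figure D5:**
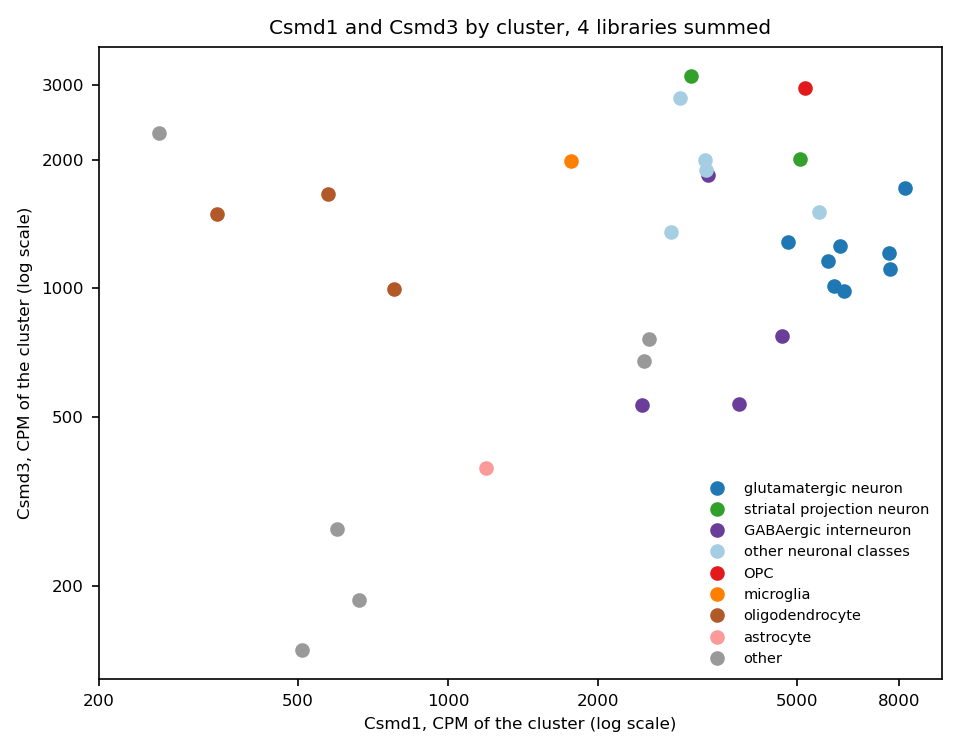
Csmd1 against Csmd3 (CPM, both axes log) in each of 31 clusters, nuclei of the 4 libraries summed, coloured by class. Glutamatergic clusters lie far right, from 4801 CPM of Csmd1, while the 3 oligodendrocyte clusters lie left, at 345 to 779 CPM of Csmd1 and 994.6 to 1667 CPM of Csmd3.

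Some Csmd values in glia moved with a few deep nuclei, while others did not. Csmd3 in oligodendrocyte-like nuclei kept ratios of 0.961, 0.802 and 0.946 among nuclei of at most 10000 UMIs, against 0.980, 0.814 and 0.936 in all. Csmd3 in microglia-like nuclei stood at 2571, 1587, 1885 and 2090 CPM. Its ratio was 0.617 (0.533 to 0.714) at day 1 and 0.733 (0.651 to 0.826) at day 3. Among nuclei of at most 10000 UMIs its ratios were 0.725, 0.716 and 0.808, with intervals below 1 and none past 2-fold. Csmd1 in microglia-like nuclei was 2.41-fold higher at day 1 (2.06 to 2.81), at 3149 CPM against 1309 CPM, but 1 nucleus held 202 of its 635 UMIs, and among nuclei of at most 10000 UMIs it was lower, at 215 CPM against 1050 CPM, a ratio of 0.204 (0.126 to 0.317). The same nuclei were rich in neuron markers. Csmd3 in astrocyte-like nuclei was 0.469 of sham control at day 3 (0.393 to 0.557) and 0.486 at day 7 (0.392 to 0.598), and among nuclei of at most 10000 UMIs it stood at 191, 202, 259 and 263 CPM, with the direction turned. Csmd1 in oligodendrocyte-like nuclei was lower at day 1, at 235 CPM against 484 CPM (0.486, 0.395 to 0.595), and the ratio was 0.695 (0.557 to 0.865) at most 10000 UMIs. That call was past 2-fold in 2 of 12 alternative settings. The later ratios at most 10000 UMIs lay above 1, at 1.94 (1.67 to 2.26) for day 3 and 1.54 (1.30 to 1.81) for day 7. In endothelial-like nuclei there were 53, 417 and 20 UMIs of Csmd1 in the sham control, day 3 and day 7 libraries, or 343, 970 and 154 CPM, with ratios of 2.83 (2.12 to 3.84) and 0.450 (0.255 to 0.765). The summed neuron markers of endothelial nuclei moved the same way, at 1152, 2792 and 918 CPM. A single nucleus of day 3 held 112 of the 417 UMIs of Csmd1 in endothelial-like nuclei, and whether neuronal RNA gave the difference was not tested.

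In astrocyte-like nuclei 1 of 6 complement genes was higher at day 1 (C1qc), 4 of 7 at day 3 (C1qb, C1qc, C3 and C4b) and 3 of 6 at day 7 (C1qa, C1qb and C1qc), against 5.85%, 5.4% and 6.06% of all genes. Among astrocyte-like nuclei of at most 10000 UMIs none of the 3 day 7 calls was past 2-fold, and C1qa and C1qb then had 5 and 7 UMIs at day 7. The 1 lower gene on the later days was Csmd3 and there was none at day 1, against 7.82%, 5.63% and 8.14% of all genes. In oligodendrocyte-like nuclei 2 of 6 were higher at day 1 (C1qa and C1qb), 3 of 6 at day 3 (C1qa, C1qb and C1qc) and 3 of 6 at day 7 (C1qa, C1qc and C4b), against 5.41%, 5.63% and 4.27%, and Csmd1 was the 1 lower gene at day 1, with 8.14%, 3.83% and 7.47% of all genes lower on the 3 days. The day 1 call of C1qb in oligodendrocytes was past 2-fold in 3 of 13 alternative settings. Apart from C3 and C4b, the higher genes in both classes were C1q genes. All 5 of these genes were higher in both kinds of droplets at day 3, whereas C1qc, the higher gene of astrocytes at day 1, was not past 2-fold in either kind that day (1.76 and 1.40). The median log2 ratios were 0.38, 1.01 and 1.00 in astrocytes and 0.44, 1.13 and 0.91 in oligodendrocytes, with all genes between -0.10 and -0.01. In oligodendrocyte precursor-like nuclei 1 of 5, 2 of 6 and 0 of 4 were higher and 0 lower, against 9.29%, 8.95% and 6.09% of all genes higher and 7.64%, 6.46% and 9.75% lower.

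The genes whose level followed each member most closely were found by Pearson's r of log2(CPM + 1) over 45 sums of class and library, which share libraries, depth and free RNA. C1qa was closest to Ctss, a lysosomal protease gene (0.92), then C1qc (0.91) and C1qb (0.90). C3ar1 was closest to Tlr7, an RNA sensor (0.89), and C5ar1 to Rhoh (0.91), Mir142hg and Ptprc, all haematopoietic genes. C4b was closest to Nkx2-2os (0.84), Gli2 (0.83) and Gramd3 (0.80), Serping1 to Tbx15 (0.78), Csmd1 to Nrxn3 (0.91) and Csmd3 to Myo5a (0.82). The values describe these sums and carry no test.

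Another 48 complement genes were listed by role, and 21 of them had at least 100 UMIs in nuclei while 3 had 0. C1s2 and Itgam each matched 2 rows, of which the first was used, and Itgam, 1 of the genes at 0, had 1 UMI over both. In microglia-like nuclei 3 of 9 tested were higher and 1 lower at day 1, 1 of 11 and 1 at day 3, and 2 of 11 and 1 at day 7, beside 11.6%, 6.57% and 8.84% of all genes higher and 10.7%, 6.5% and 8.89% lower. Itgb2, the beta chain of the C3 fragment receptors, had 3, 8, 17 and 9 UMIs, with ratios of 2.28 (0.548 to 13.4), 2.42 (0.699 to 12.9) and 2.22 (0.555 to 12.8). Colec12, a scavenger collectin, had 0, 4, 14 and 20 UMIs, a ratio of 4.94 at day 7 with sham control set to a floor of 3 UMIs. The lower genes were Cr1l, a membrane inhibitor of C3 cleavage, at day 1 (0.381, 0.143 to 0.920) and Sez6 at day 3 (0.355) and day 7 (0.494), and Csmd2 (2.57) and Sez6l (3.00) were higher at day 1 with the deep nuclei included.

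In astrocyte-like nuclei Clu, which encodes clusterin, an inhibitor of the membrane attack complex, was lower at day 1, at 272 CPM (98 UMIs) against 553 CPM in sham control (334 UMIs), a ratio of 0.492 (0.388 to 0.618). At day 3 and day 7 it stood at 570 CPM and 528 CPM. In all, 0 of 13, 0 of 14 and 2 of 13 tested were higher and 2, 1 and 2 lower, beside 5.85%, 5.4% and 6.06% of all genes higher and 7.82%, 5.63% and 8.14% lower. Vtn was lower at day 1 and day 7 (17, 2 and 1 UMIs), Sez6 at day 3 (0.451) and day 7 (0.256), and Susd4 was higher at day 7 (2.19, 1.24 to 3.98).

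In oligodendrocyte-like nuclei 1 of 11, 3 of 15 and 1 of 11 tested were higher and 1, 0 and 1 lower, beside 5.41%, 5.63% and 4.27% of all genes higher and 8.14%, 3.83% and 7.47% lower. Cd59a, the membrane protein that blocks the terminal pore, had 2, 9 and 8 UMIs in sham control, day 1 and day 3, with ratios of 6.56 (1.36 to 62.4) and 3.23 (0.644 to 31.2). Cfp (2.42) and Vtn (2.42) were higher at day 3 and Sez6l at day 7 (2.68, 1.58 to 4.69), while Susd4 at day 1 (0.464) and Sez6 at day 7 (0.440) were lower.

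UMI sums are not scaled to gene length and do not rank expression between genes. By role and among these 48 genes alone, the classical pathway genes with most UMIs in nuclei were C2 (200), C4a (79) and C1ra (52). The lectin pathway was led by Colec12 (868), Masp2 (574) and Masp1 (485), and Colec12 stood at 1344 CPM in mural-like nuclei. The alternative pathway had Cfp (583), Cfd (1) and Cfb (0), and Cfb overlaps another gene on its strand. The terminal pathway had C7 (209), C6 (76) and C8g (59), of which 71 UMIs of C6 were in subcortical glutamatergic neuron-like nuclei. Among receptors, Cr2 had 330, Cd93 had 290, 229 of them in endothelial-like nuclei, and Itgb2 had 65. The soluble regulators included Clu (4576) and Vtn (1179, at 1953 CPM in mural-like nuclei), the membrane regulators Cd46 (4327), Cr1l (2386) and Cd59a (419), and the relatives of the Csmd genes Csmd2 (23651), Sez6l (10398) and Susd4 (8582).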

How the data were processed

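The authors deposited counts, 1 UMI count per gene and droplet of every barcode, aligned per the submitters' processing notes with STAR 2.7.3a to GRCm38 (mm10) and counted, per the study's methods, over exons and introns, which favours long genes such as Csmd1. The deposited tables were not filtered for nuclei. From them, nuclei were called per library by a test against a free-RNA profile (barcodes up to 1000 UMIs, 10000 Monte Carlo draws, false discovery rate 0.001) or above the knee, doublets were predicted with Scrublet (scanpy 1.11.5) at 0.8% per 1000 nuclei and removed, and nuclei were integrated and clustered with Seurat 5.3.0 and sctransform 0.4.2 (30 components, resolution 0.8). Clusters were named from 189 markers of 19 classes by thresholds set after the clusters were seen, and 2 non-neuronal clusters stayed unnamed. UMIs were summed per class and library, in classes of at least 20 nuclei for comparisons. Intervals are exact Poisson, conditional binomial and Clopper-Pearson at 95%, and a 0 allows up to 3 UMIs. Depth, from 23285489 to 42963698 UMIs per library, sets the precision. The calling step was tested on simulated empty droplets and thinned nuclei, and the ratio step on simulated class sums. Members, lists and rules were chosen with earlier results of these data known. Other genes are named if they passed 2-fold in a glial class or led their role in UMIs, apart from a gene that is not reported here. Alternatives are given in the closing section.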

Additional observations from a re-analysis of the deposited data

Results flagged for a closer look

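Some genes moved past 2-fold in opposite directions in different classes of the same day. C1qa at day 1 was 4.08 times sham control in oligodendrocyte-like nuclei, 2.97 in striatal projection neuron-like nuclei and 3.87 in GABAergic interneuron-like nuclei, but 0.435 in the neurons of no named class, which rests on 5 UMIs. Csmd1 at day 1 was 2.41 in microglia-like and 0.486 in oligodendrocyte-like nuclei. Csmd3 at day 3 was 0.469 in astrocyte-like and 2.88 in endothelial-like nuclei. Among nuclei of at most 10000 UMIs Csmd1 at day 1 was 0.204 in microglia-like and 0.695 in oligodendrocyte-like nuclei, the same direction, and Csmd3 at day 3 was 1.35 in astrocyte-like nuclei. Each was noted because 1 library per group moved one way in one class and the opposite way in another, and the difference was not tested.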

How the results depend on the processing

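No paired analysis was possible because each group holds 1 library. Numbers of members past 2-fold were 2, 1 and 0 in microglia-like nuclei (day 1, day 3, day 7), 1, 5 and 4 in astrocyte-like and 3, 3 and 3 in oligodendrocyte-like nuclei, and TMM scaling left all within 1.5 times. With doublets kept, oligodendrocytes had 1 at day 1 and astrocytes 2 at day 7. With every barcode over 1000 UMIs classed by score, microglia had 1, 3 and 1 and astrocytes 3 at day 1. With class by score alone, microglia had 1, 3 and 1 and oligodendrocytes 1 at day 1. Without integration, microglia had 1 at day 7, astrocytes 2 at day 1 and 3 at day 3, and oligodendrocytes 1 at day 1. At resolution 1.6 oligodendrocytes had 1 at day 1, and in nuclei over 2000 UMIs microglia had 0 at day 1. Thinned nuclei gave microglia 1 at day 1 and 2 at day 7, astrocytes 0, 2 and 0, and oligodendrocytes 0 at day 1. The mean of per-nucleus CPM gave 1 for microglia at day 7 and for oligodendrocytes at day 1. With equal free RNA removed, astrocytes had 0 at day 1 and 3 at day 3, and oligodendrocytes 1, 1 and 1, and with free RNA removed in proportion, astrocytes had 0 at day 1 and 2 at day 7, and oligodendrocytes 1 at day 1 and day 7. Without the top nucleus, astrocytes had 0 and oligodendrocytes 1 at day 1. Where the astrocyte count at day 1 was 0, the gene lost was C1qc, whose log2 ratio was still 1.11 to 2.46 in all 13 alternatives that gave one, so it fell under the minimum of 10 UMIs and not under 2-fold. With at least 30 UMIs, astrocytes had 0 at day 1 and 1 at day 7 and oligodendrocytes 1 at day 1 and day 7, and with no minimum astrocytes had 2 at day 1. With labels exchanged, microglia had 0 at day 3 and 1 at day 7. Of the alternatives added after the data were seen, 30 unnamed nuclei counted as microglia gave 2 at day 3, and nuclei of at most 10000 UMIs gave microglia 1 at day 7, astrocytes 0, 2 and 0 and oligodendrocytes 1 at day 1.

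Among ratios past 2-fold, those that turned were, as log2 ratios, Csmd1 in microglia at day 1 (-2.29 at most 10000 UMIs) and Csmd3 in astrocytes. Csmd3 turned at day 3 (0.030 thinned, 0.44 at most 10000 UMIs) and day 7 (0.46 at most 10000 UMIs). Other calls changed sign only where both sums were at or under the floor of 3 UMIs, so totals alone set the sign. These included C3 in astrocytes at day 3 (-0.63 thinned, -0.38 without the top nucleus, -0.68 at most 10000 UMIs). The others were C1qb in oligodendrocytes at day 3 (-0.31 with equal free RNA removed) and C5ar1 in droplets at day 3 (-0.085 with labels exchanged). Some ratios within 2-fold turned as well at most 10000 UMIs, among them C1qa in microglia at day 1 (ratio 0.887, then 1.32), Csmd1 in microglia at day 7 (1.29, then 0.783) and in astrocytes Csmd1 (1.35, then 0.747) and Csmd3 (0.726, then 1.06) at day 1. Where a value changed without the deep nuclei or the top nucleus, it rested on those nuclei, and no cause was tested. The limits are depth, with 8 to 41 UMIs behind each receptor value, and 1 pooled library per group, which leaves animal, library and day inseparable.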
